A study of Mus musculus with 6 samples.

Results

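The myocyte enhancer factor 2 (MEF2) transcription factors and the class IIa histone deacetylases that bind them were examined in embryonic mouse cochleae with and without Igf1, the gene of insulin-like growth factor 1. The group comprised 8 genes, the MEF2 genes Mef2a, Mef2b, Mef2c and Mef2d and the deacetylase genes Hdac4, Hdac5, Hdac7 and Hdac9, and its members were all probe sets annotated to 1 of these genes alone. There were 17 such probe sets among the 22626 tested, and they covered 7 of the 8 genes. No probe set on the array was annotated to Hdac4 alone, so Hdac4 was not analysed here. Mef2a and Mef2c had 5 probe sets each, Mef2d and Hdac7 2 each, and Mef2b, Hdac5 and Hdac9 1 each.

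Each of 6 arrays was hybridised with RNA from a pool of 4 cochleae of embryonic day 18.5. Per the labels, 3 pools came from Igf-1-/- null embryos and 3 independent pools from Igf-1+/+ wild type embryos, all obtained by mating heterozygous parents on a C57BL/6J background, and the dissected tissue kept the otic capsule and left out the vestibular organs. The labels do not name the disrupted part of Igf1, and pooling hides the spread between embryos. The field for the RNA source marks the 3 null pools as wild type, against their titles and descriptions, and gives 1 wild type pool a slightly later age, and the titles were followed. At the 3 Igf1 probe sets the null pools all lay below the wild type pools, with differences of -0.46, -0.55 and -0.99 (null minus wild type, log2 signal), and limma's adjusted p over all probe sets lay between 0.600 and 0.889.

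MEF2 factors bind DNA through a MADS box and switch on programmes of muscle, neurons, endothelium, neural crest and hypertrophic cartilage, and MEF2C is required for cartilage to hypertrophy and turn into bone. Class IIa deacetylases carry a short amino-terminal segment that binds the MEF2 domain and represses it, and phosphorylation by calcium/calmodulin-dependent kinases, protein kinase D and salt-inducible kinases lets 14-3-3 proteins carry them out of the nucleus. Growth factors and calcium signals can thus raise MEF2 activity with no change in the amount of MEF2 or deacetylase transcript, and the arrays measured transcripts only. The published study of these samples was concerned with MEF2 and FOXM1 factors, and its own values were not used here.

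Promoter windows of the 8 genes were read for MEF2 sites, because MEF2 factors are known to act on genes of their own circuit. RefSeq sequences of build GRCm38.p6 held 14 windows of 300 bases for these genes, from 250 bases before to 50 bases after an annotated start, of which 4 belonged to Hdac7, 3 to Mef2c, 2 to Hdac9 and 1 to each other gene. The windows were searched on both strands for the degenerate MEF2 consensus, which spans 10 bases and reads the same on both strands. It was found in 2 of the 14 windows, and in 3.19% of all 32851 promoter windows of the same length. The windows of Mef2a (chr7:67372809-67373108, minus strand) and Hdac5 (chr11:102230123-102230422, minus strand) are shown because they held the match, which is in capitals. Its first base lay 2 bases upstream of the Mef2a start and 20 bases upstream of the Hdac5 start.
Mef2a: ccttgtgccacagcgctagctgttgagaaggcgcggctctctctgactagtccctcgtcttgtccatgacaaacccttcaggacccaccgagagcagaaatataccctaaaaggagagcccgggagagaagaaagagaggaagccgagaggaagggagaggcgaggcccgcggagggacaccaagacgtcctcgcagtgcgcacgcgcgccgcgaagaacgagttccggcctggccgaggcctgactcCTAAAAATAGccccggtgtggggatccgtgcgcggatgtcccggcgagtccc
Hdac5: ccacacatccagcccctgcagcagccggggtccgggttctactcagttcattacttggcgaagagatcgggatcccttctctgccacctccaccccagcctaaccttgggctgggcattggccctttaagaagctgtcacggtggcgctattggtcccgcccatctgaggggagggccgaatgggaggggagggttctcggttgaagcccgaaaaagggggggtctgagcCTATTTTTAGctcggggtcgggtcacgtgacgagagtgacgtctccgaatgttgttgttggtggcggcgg
A match describes the letters of the window and not a bound site, and the arrays hold no binding data.

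No probe set of a MEF2 factor or class IIa deacetylase passed the test between null and wild type cochleae. Of the 17 member probe sets 14 had a lower and 3 a higher mean in the null pools, with a median difference of -0.07 (null minus wild type, log2 signal after quantile normalization). Over all 22626 probe sets 49.3% had a lower null mean and the median was 0.0041. With each array centred on its median in place of quantile normalization, 10 member probe sets were lower and 7 higher, with 46.5% of all probe sets lower. On the values as deposited, where the median probe set differed by -0.152, 15 were lower and 2 higher, with 73.8% of all probe sets lower. Several probe sets share a transcript or a source sequence, so these counts are not counts of independent measurements. With limma and Benjamini-Hochberg adjustment over all probe sets, 0 of the 17 passed an adjusted p of 0.05, where 0% of all probe sets did, and the lowest adjusted p was 0.961. At an unadjusted p under 0.05 there was 1 member probe set (of Mef2d), against 4.99% of all probe sets. The same Mef2d probe set was the 1 member at which every null pool lay below every wild type pool, which was so for 5.3% of all probe sets, and at no member did every null pool lie above every wild type pool (5.53% of all).

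**Figure D1:**
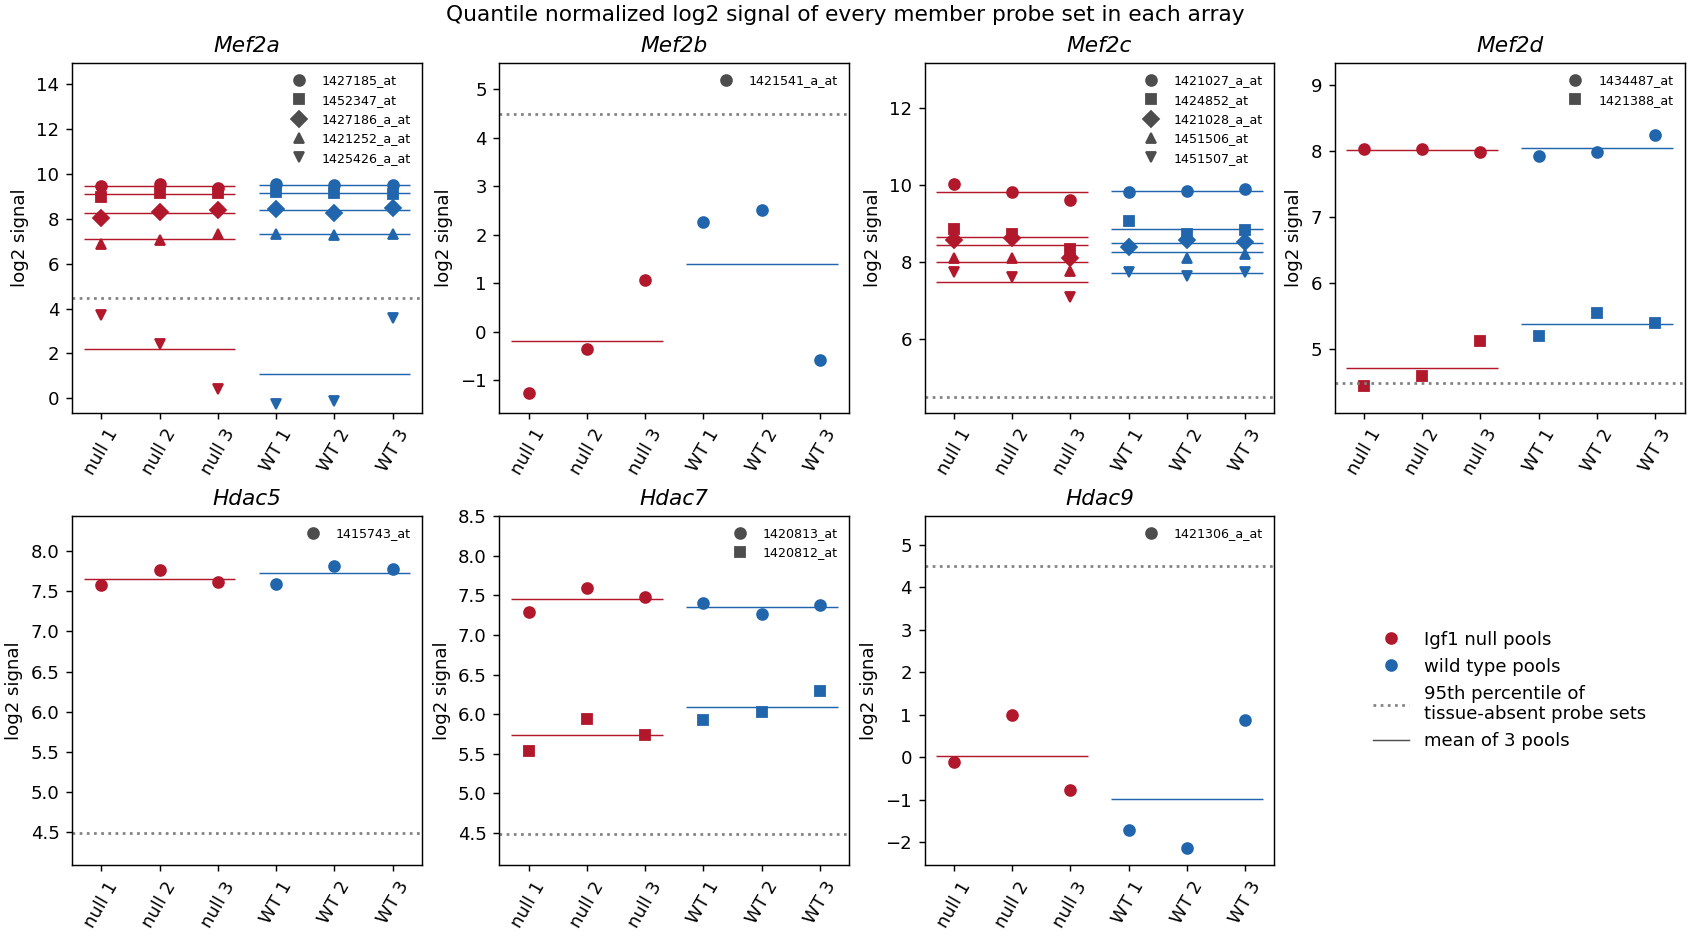
Log2 signal (vertical axis) of each member probe set in each array (horizontal axis), with the 3 Igf1 null pools in red left of the 3 wild type pools in blue, 1 panel per gene and 1 symbol per probe set. Horizontal lines are means of 3 pools, and the dotted line is the background level of 4.49; the probe sets of Mef2b and Hdac9 and the dimmest of Mef2a lie below it in every array, and the dimmer Mef2d probe set is lower in all 3 null pools.

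A background level was taken from 31 probe sets of genes of sperm, egg, pancreas, liver, retina and mammary gland, which the cochlea is not known to use. Their log2 signals had a median of 0.887, and the 95th percentile of 4.49 served as the background level. Of the 17 member probe sets, 14 had a mean above it in at least 1 genotype, and 3 had not. Differences between values below this level vary by several log2 units from pool to pool and give no fold change.

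Mef2c was the MEF2 gene with the widest coverage above background, and it encodes the factor needed in cartilage hypertrophy, cranial neural crest and vessels. At its brightest probe set, 1421027_a_at, Mef2c had log2 signals of 10.02, 9.83 and 9.60 in null pools 1 to 3, against 9.81, 9.85 and 9.91 in wild type pools 1 to 3. Null pool 1 was thus the highest of the 6 arrays and null pool 3 the lowest, and the groups overlapped. Means were 9.82 ± 0.21 (SD, n = 3) in null and 9.86 ± 0.05 (SD, n = 3) in wild type cochleae, a difference of -0.04 ± 0.14 (SE) with a 95% interval from -0.40 to 0.32, or a ratio of 0.974 with an interval from 0.758 to 1.25.

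The other 4 Mef2c probe sets gave the same order at the low end. At 1421028_a_at the Mef2c values were 8.56, 8.63 and 8.11 in null pools, against 8.39, 8.56 and 8.53 in wild type pools, a difference of -0.06 ± 0.18 (SE). The probe sets 1424852_at, 1451506_at and 1451507_at were built on 1 shared source sequence and had the larger differences of this gene, -0.22 ± 0.19, -0.26 ± 0.16 and -0.23 ± 0.20 (SE). At 1451507_at Mef2c read 7.75, 7.63 and 7.10 in null pools, against 7.75, 7.65 and 7.76 in wild type pools. At 1451506_at it read 8.10, 8.10 and 7.78 in null pools, against 8.48, 8.10 and 8.20 in wild type pools, and at 1424852_at 8.87, 8.74 and 8.35 in null pools, against 9.06, 8.72 and 8.83 in wild type pools. Null pool 3 was the lowest array at all 5 Mef2c probe sets. Without null pool 3 the differences at the 5 probe sets ran from -0.16 to 0.11, and those at 1421027_a_at and 1421028_a_at were positive (0.07 and 0.11). Limma's adjusted p for the 5 Mef2c probe sets lay between 0.980 and 0.997, and the exact permutation test over arrays, two-sided, gave p between 0.2 and 1, where 0.1 is the smallest value that 3 against 3 arrays allow. Pearson's r between pairs of Mef2c probe sets over the 6 arrays ran from 0.434 to 0.958 (10 pairs, median 0.82), given as a description of arrays that share the same RNA.

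Null pool 3 also held the lowest value of 7 of the 10 measured genes in a list of cartilage hypertrophy genes, while null pool 1 held that of Sox9 and Zfp521 and wild type pool 1 that of Runx3, which was below background. Of these 7, 3 are given here, chosen after their values were seen. Col10a1, the collagen gene that marks hypertrophic chondrocytes, read 8.48, 7.98 and -0.92 in null pools, against 6.79, 7.68 and 7.56 in wild type pools. Mmp13, a collagenase gene of late hypertrophic cartilage and bone, read 9.18, 7.34 and 5.54 in null pools, against 9.04, 8.41 and 8.02 in wild type pools. Ibsp, the bone sialoprotein gene, read 11.21, 10.25 and 8.82 in null pools, against 10.30, 10.21 and 10.04 in wild type pools. These 3 genes and Mef2c had their lowest value in the same array and overlapped between genotypes. Sox9, a gene needed for cartilage to form, went the other way, with 7.89, 8.04 and 8.94 in null pools, against 8.38, 8.29 and 8.84 in wild type pools, its highest value being in null pool 3. In bulk RNA, fewer cells of a type and less RNA per cell cannot be told apart. The bone marker list, 5 measured of 8 and all 5 above background, had summed linear signals of 7824 to 10820 in null pools and 8974 to 11450 in wild type pools, with its lowest sum in null pool 3. The general cartilage list, 11 of 11, did not follow null pool 3, and summed to 25750, 32660 and 35610 in null pools, against 32910, 39140 and 40680 in wild type pools. Null pool 3 held the lowest value of all 5 bone markers but of 1 of the 11 cartilage markers (Col10a1), and null pool 1 that of 9 cartilage markers. Null pool 3 also held the lowest value of 4 of 14 skeletal muscle and 4 of 9 neuronal markers. Wild type pool 2 held that of the other 10 muscle markers. The muscle list summed to 32910, 22480 and 10270 in null pools 1 to 3, against 21630, 9860 and 32010 in wild type pools 1 to 3. Null pool 3 held the lowest value of 0 endothelial, macrophage, hair cell or otic epithelium markers. The share of all genes with their lowest value in null pool 3 was not counted. The part of tissue content in the Mef2c values was not tested.

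**Figure D2:**
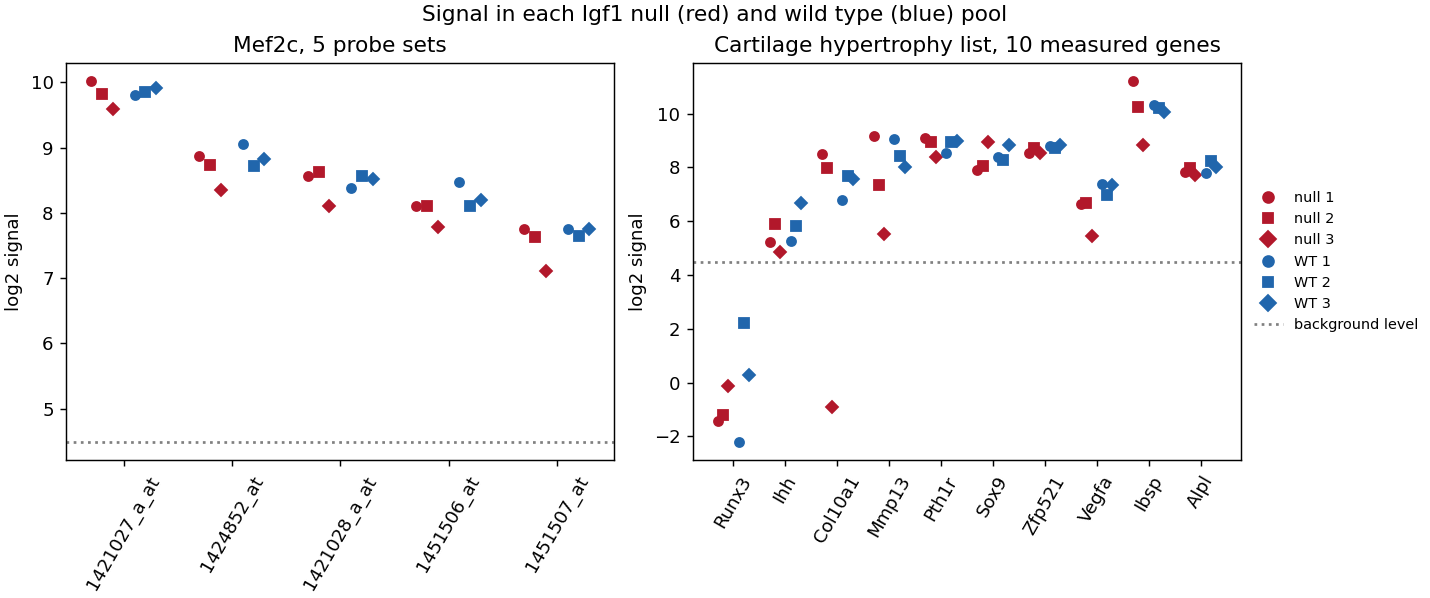
Log2 signal (vertical axes) in the 3 Igf1 null pools (red, left of each column) and 3 wild type pools (blue, right), for the 5 Mef2c probe sets in the left panel and all 10 measured genes of the cartilage hypertrophy list in the right panel, with the background level dotted. Null pool 3 (red diamonds) is the lowest array at all 5 Mef2c probe sets and for 7 of the 10 genes, with Col10a1 at -0.92, and is the highest for Sox9 (8.94).

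Mef2a, the factor gene expressed in most tissues, was measured above background at 4 of its 5 probe sets, and 3 of these 5 share a source sequence. At 1427185_at it read 9.47, 9.54 and 9.38 in null pools, against 9.55, 9.50 and 9.52 in wild type pools. Means were 9.46 ± 0.08 (SD, n = 3) in null and 9.52 ± 0.02 (SD, n = 3) in wild type cochleae, a Mef2a difference of -0.06 ± 0.10 (SE) with a 95% interval of the ratio from 0.802 to 1.15. At 1452347_at Mef2a read 8.97, 9.17 and 9.16 in null pools, against 9.18, 9.14 and 9.13 in wild type pools (-0.05 ± 0.11 SE). The groups overlapped at both probe sets.

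Probe set 1427186_a_at read 8.06, 8.30 and 8.40 for Mef2a in null pools, against 8.43, 8.25 and 8.48 in wild type pools (-0.13 ± 0.14 SE). The largest Mef2a difference above background was at 1421252_a_at, with 6.89, 7.08 and 7.33 in null pools, against 7.33, 7.28 and 7.31 in wild type pools (-0.21 ± 0.14 SE). Wild type pools at this probe set spanned less than 0.1 log2 units, and null pool 3 lay among them while null pools 1 and 2 were lower. Null pool 1 was the lowest array at 3 of the 4 Mef2a probe sets above background. That array had the lowest median of the deposited values, 5.61, where the others ran from 6.09 to 6.36, and after quantile normalization it held the lowest value of 9 of the 11 cartilage and 5 of the 8 endothelial markers, whose part in the Mef2a values was not tested. Without null pool 1 the Mef2a differences were -0.10 at 1421252_a_at, -0.03 at 1427186_a_at and 0.01 at 1452347_at. Limma's adjusted p for the 4 Mef2a probe sets ran from 0.980 to 0.995. The fifth probe set, 1425426_a_at, read 3.70, 2.43 and 0.41 in null pools, against -0.25, -0.10 and 3.57 in wild type pools, below background in every array.

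Mef2d had the 1 member probe set whose groups did not overlap, and at its other probe set the difference was -0.03 (the difference between both probe sets was not tested). Mef2d encodes a MEF2 factor abundant in brain, muscle and retina. At 1421388_at Mef2d read 4.44, 4.59 and 5.13 in null pools, against 5.21, 5.55 and 5.40 in wild type pools. Each null pool was lower than each wild type pool, and null pool 1 lay just below the background level. Means were 4.72 ± 0.36 (SD, n = 3) in null and 5.38 ± 0.17 (SD, n = 3) in wild type cochleae. The Mef2d difference was -0.66 ± 0.22 (SE), with a 95% interval from -1.22 to -0.10. The null mean was near the background level of 4.49. The null mean also lay below 5.02, the highest signal of the probe sets that define that level, so no fold is given. Limma's unadjusted p was 0.028 and its adjusted p 0.961 over all probe sets, and the exact permutation p was 0.1, the smallest possible. At the brighter probe set 1434487_at Mef2d read 8.04, 8.04 and 7.98 in null pools, against 7.93, 7.99 and 8.24 in wild type pools, and the groups overlapped. The difference there was -0.03 ± 0.13 (SE), with a 95% interval from -0.35 to 0.29 and an adjusted p of 0.998 in limma. Over the 6 arrays Pearson's r between both Mef2d probe sets was 0.0927, as a description. The annotation used does not say which Mef2d transcripts each probe set detects.

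Mef2b, the most divergent MEF2 gene, was below background. Its probe set 1421541_a_at read -1.27, -0.35 and 1.06 in null pools, against 2.26, 2.52 and -0.57 in wild type pools. The pools overlapped, and the values do not measure a level of Mef2b in either genotype.

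Among the deacetylases, Hdac5 and Hdac7 were measured above background and neither passed the test. Hdac5 encodes a signal-dependent repressor of MEF2 in heart, muscle and neurons. At its 1 probe set, 1415743_at, Hdac5 read 7.58, 7.77 and 7.62 in null pools, against 7.59, 7.81 and 7.78 in wild type pools, and the groups overlapped. The Hdac5 means were 7.66 ± 0.10 (SD, n = 3) in null and 7.72 ± 0.12 (SD, n = 3) in wild type cochleae, a difference of -0.07 ± 0.12 (SE) with a 95% interval of the ratio from 0.771 to 1.18 and an adjusted p of 0.990 in limma.

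Hdac7, which represses MEF2 in endothelium and developing T cells, had 2 probe sets on 1 shared source sequence that differed in sign. At 1420813_at Hdac7 read 7.30, 7.60 and 7.47 in null pools, against 7.40, 7.26 and 7.38 in wild type pools, with 2 null pools above all wild type pools (0.11 ± 0.13 SE). At 1420812_at Hdac7 read 5.53, 5.94 and 5.74 in null pools, against 5.93, 6.03 and 6.29 in wild type pools, where 2 null pools lay below all wild type pools (-0.35 ± 0.17 SE). The 95% intervals ran from -0.21 to 0.42 and from -0.77 to 0.07, and the limma adjusted p was 0.985 and 0.980. On the values as deposited the sign at 1420813_at turned (-0.03). The endothelial markers, 8 measured of 8 and all above background, summed to linear signals of 1145 to 1222 in null pools and 1189 to 1319 in wild type pools, and overlapped between the genotypes. By gene, 7 of the 8 were lower in null and 1 higher (median -0.19), where 48.7% of all genes were lower. At 1 of the 8 every null array lay below every wild type array, as for 4.98% of all genes. The part of the endothelial markers in the Hdac7 values was not tested.

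Hdac9, which gives rise to a truncated repressor without a deacetylase domain and is a described MEF2 target in muscle, was below background. Its probe set 1421306_a_at read -0.12, 0.98 and -0.77 in null pools, against -1.72, -2.15 and 0.88 in wild type pools. The groups overlapped, and no level of Hdac9 was measured.

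**Figure D3:**
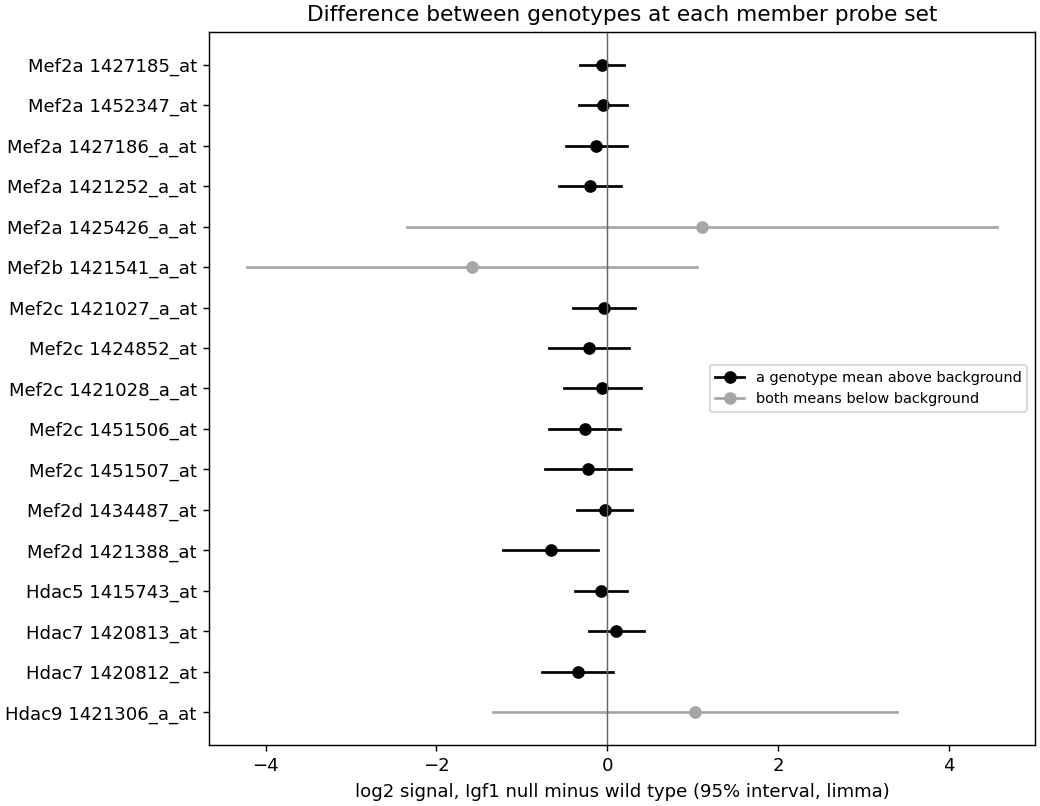
Difference in log2 signal, Igf1 null minus wild type (horizontal axis), at each of the 17 member probe sets, with limma's 95% interval over 3 against 3 arrays as a bar. Intervals of the 14 probe sets above background (black) include 0 except at Mef2d 1421388_at (-0.66), and those of the 3 probe sets below background (grey) span several log2 units.

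Transcripts of enzymes and carriers that move class IIa deacetylases out of the nucleus gave no call in either direction. The share of all 12393 genes past an adjusted p of 0.05 in limma was 0%, and 4.94% had an unadjusted p under 0.05. A lower null mean was found for 48.7% of all genes. The list of class IIa deacetylase kinases also holds kinases upstream of them, such as Camkk2. Of its 16 measured genes (19 listed) 6 were lower and 10 higher (median 0.04), and 0 had an unadjusted p under 0.05 in limma. The smallest p values above background belonged to Mark2, a polarity kinase (0.17 ± 0.14 SE), Camkk2, which activates CaM kinases (0.13 ± 0.13 SE), and the protein kinase D gene Prkd3 (0.14 ± 0.15 SE). All 7 of the 14-3-3 genes were measured, 5 higher and 2 lower, with a median of 0.01. Among them Ywhaq read 11.30, 11.45 and 11.33 in null pools, against 11.17, 11.30 and 11.11 in wild type pools, each null pool higher (0.17 ± 0.11 SE), where 5.62% of all genes had every null array above every wild type array. Sfn, the epithelial 14-3-3 gene, lay around the background level, with 4.52, 4.22 and 4.87 in null pools, against 4.49, 2.99 and 3.05 in wild type pools, so no fold is given. Ywhae differed by -0.08 ± 0.15 (SE). Ywhaq and Sfn, like the rest, did not pass the adjusted threshold in limma (adjusted p of 0.998 for both).

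Transcripts of proteins that modify MEF2 or work beside it likewise had differences spread around 0. Of 13 genes of kinases and phosphatases of MEF2 and of their regulators, such as Cdk5r1, 6 were lower and 7 higher (median 6.7e-04). Map2k6, a kinase of the p38 pathway that phosphorylates MEF2, differed by -0.44 ± 0.21 (SE), the Cdk5 activator gene Cdk5r1 by -0.24 ± 0.23 (SE) and Gsk3b by 0.19 ± 0.18 (SE). Of 12 measured coactivators and partners (16 listed) 8 were lower and 4 higher (median -0.04). Nfatc1, the gene of a calcineurin-regulated factor, differed by -0.26 ± 0.14 (SE) and the acetyltransferase gene Kat2b by -0.15 ± 0.15 (SE). Nfatc2 lay around the background level, with 3.05, 3.67 and 4.98 in null pools, against 4.22, 4.27 and 5.24 in wild type pools, so no fold is given. Their intervals each included 0, and limma's adjusted p was 0.998 for the 6 genes named in these 2 lists.

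Transcripts of corepressors and of the other zinc-dependent deacetylases had list medians slightly above 0 after quantile normalization. Of 7 measured corepressor genes (10 listed) 2 were lower and 5 higher (median 0.08). The smallest p values belonged to the heterochromatin protein gene Cbx5 (0.20 ± 0.11 SE), Hdac3, the catalytic subunit recruited by class IIa deacetylases (0.20 ± 0.12 SE), and Tbl1xr1 (-0.24 ± 0.20 SE). Of 5 measured deacetylases of other classes (7 listed), 1 was lower and 4 higher (median 0.18). Hdac3 is in both lists and counts among the higher genes of each. Over all genes 48.7% were lower. Hdac1, a class I enzyme, read 9.40, 9.41 and 9.44 in null pools, against 9.35, 9.11 and 9.23 in wild type pools, each null pool higher (0.18 ± 0.10 SE). Every null array lay above every wild type array for 5.62% of all genes. Hdac6, the tubulin deacetylase gene, differed by 0.32 ± 0.16 (SE). None passed (adjusted p of 0.998 in limma for Hdac1, Hdac3 and Hdac6), and no unadjusted p in either list was under 0.05. On the values as deposited the medians of these lists were -0.04 and 0.07.

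Genes described as MEF2 targets were evenly divided. Of 22 measured targets (24 listed) 10 were lower and 12 higher, and the median was 0.0027, beside 0.0062 over all genes, and 0 had an unadjusted p under 0.05 in limma. Jun, an immediate early gene and MEF2 target, read 8.06, 7.63 and 8.09 in null pools, against 8.11, 8.74 and 8.40 in wild type pools, each null pool lower (-0.49 ± 0.22 SE, adjusted p = 0.998 in limma), where 4.98% of all genes had every null array below every wild type array. Nr4a1, an orphan nuclear receptor gene, differed by -0.34 ± 0.17 (SE). Sost, a bone gene with a MEF2-dependent enhancer, lay around the background level, with 5.28, 4.06 and 5.29 in null pools, against 3.62, 4.40 and 4.24 in wild type pools, so no fold is given. Muscle targets such as Ckm, the muscle creatine kinase gene, varied far more within a genotype than between genotypes. Ckm read 11.13, 10.77 and 8.95 in null pools, against 10.50, 9.14 and 11.13 in wild type pools. All 14 skeletal muscle markers were measured and above background, and their summed linear signal was 32910, 22480 and 10270 in null pools 1 to 3, against 21630, 9860 and 32010 in wild type pools 1 to 3. Ckm, Myog and Des are in both the target and the muscle list. The target median was 0.31 without null pool 3 and -0.23 without null pool 1, with array weights -0.24, and likewise -0.27 without wild type pool 2 and 0.35 without wild type pool 3. The part of muscle content in the target values was not tested.

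Genes of the cartilage hypertrophy programme in which MEF2C and HDAC4 act had lower means in the null pools. Of 10 measured members (13 listed) all 10 were lower, with a median of -0.40, where 48.7% of all genes were lower. General tissue markers were lower too, with all 11 cartilage markers (median -0.35, 1 gene in both lists) and all 5 bone markers (median -0.20, 2 genes in both). Every null array lay below every wild type array at 2 cartilage and 2 bone markers, as for 4.98% of all genes. An unadjusted p under 0.05 in limma was found for 1 marker in each list, Matn3 and Dmp1 (adjusted p of 0.884 for both), against 4.94% of all genes. The part of tissue content in the hypertrophy list was not tested. The count was 7 of 10 without null pool 3, with a median of -0.20, and 8 of 10 with median centring (median -0.40). Without wild type pool 3 it was 9 of 10 (-0.20), and without wild type pool 2 it was 8 of 10 (-0.27). Without the arrays of title number 14, a number of unstated meaning in the titles of replicate 1 of both genotypes, it was 10 of 10 (-0.73). The 10 genes include Runx3, which was below background in both genotypes. Over the 9 genes above the 40th percentile of level, which leave it out, all 9 were lower and the median was -0.21. With a pseudocount of 32 the median of the 10 genes was -0.18. Vegfa, the angiogenic factor gene of hypertrophic cartilage, read 6.65, 6.68 and 5.43 in null pools, against 7.39, 6.97 and 7.35 in wild type pools, a difference of -0.98 ± 0.38 (SE) with an unadjusted p of 0.0488 and an adjusted p of 0.996 in limma. Zfp521, a repressor gene of chondrocyte maturation, differed by -0.19 ± 0.10 (SE) with no overlap, and Ihh, the signal gene of prehypertrophic cartilage, by -0.59 ± 0.45 (SE). Smallest in size was the difference at Pth1r (-0.009 ± 0.24 SE), the receptor gene for the signal that holds hypertrophy back, and the widest was at Col10a1 (-2.17 ± 2.65 SE), with the low value of null pool 3 given above. No member passed, and 2 of the 10 (Vegfa and Zfp521) had every null array below every wild type array, as did 4.98% of all genes.

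**Figure D4:**
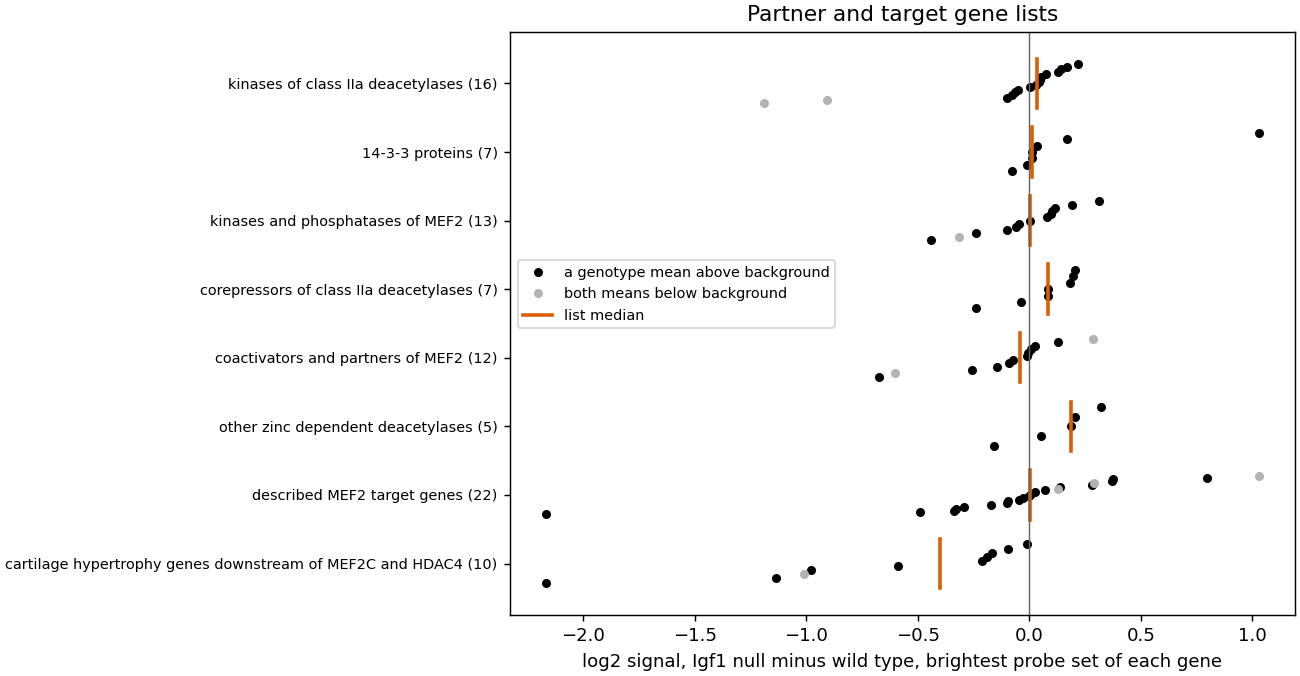
Difference in log2 signal, Igf1 null minus wild type (horizontal axis), of each measured gene in 8 partner and target lists (rows, number measured in brackets), at the brightest probe set of the gene. Points are genes, black where at least 1 genotype mean is above background and grey where both are below it, and bars are list medians, from -0.40 for cartilage hypertrophy genes to 0.18 for the other zinc-dependent deacetylases.

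Likeness of pattern over the 6 arrays was measured by Pearson's r among 8201 genes above the 40th percentile of level. Closest to Mef2c at its brightest probe set were Npl (0.998), Cfl2 (0.977) and Dmac1 (0.976). Closest to Hdac5 were Tmem9 (0.984), Rtl6 (0.982) and Scarb1 (0.982). These are descriptions over 6 arrays that share their scaling. Among the same candidates, 88 genes had r over 0.9 with Mef2c and 68 with Hdac5.

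**Figure D5:**
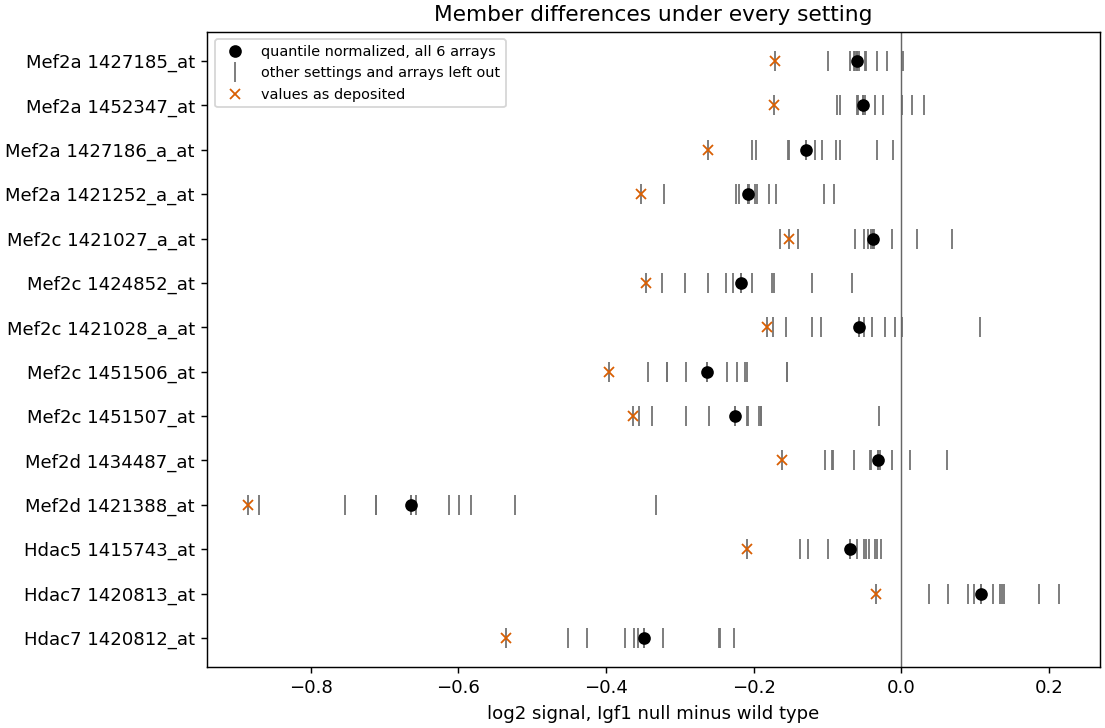
Difference in log2 signal, Igf1 null minus wild type (horizontal axis), of the 14 member probe sets above background under each processing setting and with each array left out. Points are the quantile normalized values of all 6 arrays, ticks the other settings and crosses the values as deposited; Mef2d 1421388_at stays between -0.89 and -0.33, while others such as Mef2c 1421027_a_at lie on both sides of 0.

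Known cochlear genes were detected in these arrays, counted as above background where the mean of at least 1 genotype was. This held for all 8 listed otic epithelium markers and 6 of 9 hair cell markers, 8 of 9 neuronal, 6 of 7 macrophage and 11 of 11 cartilage markers. Summed marker signals overlapped between the genotypes for all 8 marker lists, but single markers did not divide evenly. Besides the cartilage, bone and endothelial markers given above, 8 of 9 hair cell markers were higher in null (median 0.23), where 48.7% of all genes were lower. Without overlap were 3 of them, where 5.62% of all genes had every null array above every wild type array. The same 3 had an unadjusted p under 0.05 in limma, as did 4.94% of all genes. Of these 3, Slc26a5 and Espn were below background in both genotypes, and Myo15 had a mean above it in null pools only. Pou4f3, which overlapped, also had a mean above background in null pools only (4.98, against 3.72 in wild type pools). Of the 8 otic epithelium markers 6 were higher (median 0.25), 2 without overlap and 1 at an unadjusted p under 0.05 in limma. The shares of all genes beside these 2 counts were again 5.62% and 4.94%. No marker passed the adjusted threshold. Correlations between arrays over all probe sets ran from 0.939 to 0.960.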

How the data were processed

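RNA of 6 cochlear pools was hybridised as biotin-labelled cRNA to Affymetrix arrays, 1 per pool, per the labels' protocols. The deposited table gives 1 log2 signal per probe set and array; the log base was inferred from the values (-10.4 to 13.7), and how probes were summarised and background removed is not given in the sources used here. Deposited array medians differed (5.61 to 6.36), so the arrays were quantile normalized after removal of 64 control probe sets. Groups follow the sample titles. The number of arrays limits the precision, and p-values weigh the difference between genotypes against the spread between pools.

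Of 22626 probe sets, 20380 were annotated to 1 gene, 691 to several and 1555 to none. The comparison of genotypes used R 4.3.3 and limma 3.58.1 (lmFit and eBayes, two-sided, Benjamini-Hochberg over all probe sets, or over 12393 genes at the brightest probe set of each). The fit was tested on simulated data. The members, lists and tests were chosen with earlier results of these data known. Of 109 list entries 92 were measured, matched by symbol or synonym to Entrez identifiers in a RefSeq table of GRCm38.p6. Named were every member, of each list the 3 genes with the smallest p above background, and the 3 genes most alike; Col10a1, Mmp13, Ibsp, Sox9, Ckm and Pth1r were chosen after their values were seen. Alternatives covered normalization, blocks, variance model, array weights (statmod 1.5.0), a filter, a pseudocount and arrays left out; restricting the member median to probe sets above background was chosen after seeing the data.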

Additional observations from a re-analysis of the deposited data

How the results depend on the processing

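In limma 0 of 22626 probe sets and 0 members passed an adjusted p of 0.05 under every setting run, and the unadjusted count of members under 0.05 lay between 0 and 2. Mef2d 1421388_at kept its sign in all 14 alternatives (-0.89 to -0.33, adjusted p from 0.587 to 1); it falls out under the filter at the 40th percentile, as do the probe sets below background. The member median of -0.07 was -0.21 with the values as deposited, -0.16 without the arrays of title number 14 and -0.10 over the probe sets above background. Leaving out 1 array at a time gave -0.15 to -0.050. The deposited values also moved the medians of deacetylase kinases (-0.13), corepressors (-0.043), coactivators (-0.18) and other deacetylases (0.065), and leaving out title number 14 moved that of cartilage hypertrophy genes to -0.73; over single arrays left out these ran from -0.02 to 0.06, 0.01 to 0.15, -0.13 to 0.01, 0.15 to 0.19 and -0.60 to -0.20. The remaining list medians were also lower on the deposited values, where the median probe set differed by -0.152. They were -0.068 for 14-3-3 genes, -0.14 for kinases and phosphatases of MEF2, -0.15 for MEF2 targets and -0.57 for cartilage hypertrophy genes. Signs turned for differences that had passed no test. With median centring these were Mef2a 1427185_at (0.0027) and 1452347_at (0.0013), Mef2c 1421027_a_at (0.022), Mef2d 1434487_at (0.012) and Ywhae (0.092). On the deposited values they were Hdac7 1420813_at (-0.034) and Camkk2 (-0.013), and with array weights Mef2c 1421028_a_at (5.6e-04). Without title number 14 they were Mef2a 1452347_at (0.031), Mef2a 1425426_a_at (-0.32) and Tbl1xr1 (0.0089). With single arrays left out, Mef2a 1452347_at ran from -0.087 to 0.014, Mef2c 1421027_a_at from -0.14 to 0.069, Mef2c 1421028_a_at from -0.16 to 0.11, Mef2d 1434487_at from -0.094 to 0.063 and Ywhae from -0.14 to 0.048. The cause was not tested.

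The titles number the replicates in both genotypes, but the labels give these numbers no shared litter or day. Deviations of same-numbered pools correlated at 0.0399, 0.101 and 0.0209 over all probe sets, and at 0.189, 0.376 and 0.143 among the brighter probe sets, where unlike-numbered pools ran from -0.262 to 0.0862 and every pool correlated best with its own number. Over all probe sets unlike-numbered pools ran from -0.0673 to 0.0332, and 1 pool (wild type pool 3) did not correlate best with its own number. Whether the numbers mark pairs is not settled by these values, and the comparison was run both without and with the number as a block. With the replicate block 0 probe sets and 0 members passed, the member median stayed at -0.07 and Mef2d 1421388_at had an adjusted p of 0.827.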
